A study of Mus musculus with 6 samples.

Results

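Interferon-response and innate sensing genes were examined in RNA from MA-10 and STARKO1 cells. They were taken from the deposited count table by gene symbol, as protein-coding genes whose symbol matched a fixed pattern that named interferon receptors and regulatory factors, interferon-induced proteins, Toll-like receptors, RNA sensors and chemokines. Of the 14774 genes in the table, 49 were chosen, and 2 further matches, Ifi30 (typed as lncRNA in the table) and Oas1b (a polymorphic pseudogene), were left out by this rule. MA-10 cells are a mouse tumor Leydig cell line, here wild type at Star, and STARKO1 cells are a single-cell colony of MA-10 cells obtained after CRISPR/Cas9 targeting of Star. Both were untreated. Each cell line was sequenced as 3 libraries of total RNA. Because STARKO1 is 1 clone, loss of STAR and any other difference between a clone and its parental line cannot be told apart in these data. Nothing in the labels says that the libraries came from separate cultures, so the p values measure the spread between these libraries, which may be technical.

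Interferons are secreted proteins that warn cells of infection. Type I interferons bind the receptor chains encoded by Ifnar1 and Ifnar2, and interferon gamma binds those encoded by Ifngr1 and Ifngr2. Receptor-bound Janus kinases then activate transcription factors that switch on interferon-stimulated genes, many of which encode proteins that block viral entry, translation or release. Upstream of this loop, Toll-like receptors and the cytosolic RNA helicases RIG-I (Ddx58) and MDA5 (Ifih1) detect microbial molecules. The receptors signal through the adaptors MyD88 and TRIF and the helicases through MAVS, and factors such as IRF3 and IRF7 then induce interferon and chemokines. In the testis, Leydig cells and resident macrophages lie side by side, and cytokines are known to reduce steroid production by Leydig cells.

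Interferon-stimulated genes are recognised in part by their promoters, so these are shown first. The interferon-stimulated response element (ISRE), bound by complexes that contain IRF9 and by other IRF proteins, was searched as its core, the letters GAAA, any 2 bases and GAAA again, and the gamma-activated site (GAS), an element of promoters that respond to interferon gamma, as TTCNNNGAA, on both strands. The windows were RefSeq promoters of build GRCm38.p6, from 250 bases before to 50 bases after each start site, and 42 of the 49 genes had one. The ISRE core was in at least 1 promoter of 17 of these 42 genes (40.5%), against 3.49% of the 9792 genes of the table that had a promoter. The GAS core was also found in 17 of 42 (40.5%), against 8.21% of the 9792 genes. The 2 cores can overlap, as they do in Bst2. A match is a description of the letters and was not tested as a binding site.

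The 200 bases before the start site are given for 4 genes that differed between the cell lines and for Bst2, one of the most abundant of the set, 5′ to 3′ along the gene, with ISRE and GAS core matches in capitals. Isg15 and Tlr6 carry ISRE cores and moved in opposite directions, Irf8 carries GAS cores, and Tlr3 carries neither core in this stretch. Tlr6 and Irf8 each have another annotated start site, whose promoter is not shown. The promoter shown for each was chosen because it holds core matches before the start site. The other promoter of Tlr6 has GAS cores at and just after its start site and no ISRE core. The other promoter of Irf8 has neither core.
Isg15 (minus strand, chr4:156200819-156201018): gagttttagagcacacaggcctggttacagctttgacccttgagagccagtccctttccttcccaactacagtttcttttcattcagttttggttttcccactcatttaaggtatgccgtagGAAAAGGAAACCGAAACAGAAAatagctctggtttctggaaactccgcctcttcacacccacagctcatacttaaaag
Tlr6 (minus strand, chr5:64959167-64959366): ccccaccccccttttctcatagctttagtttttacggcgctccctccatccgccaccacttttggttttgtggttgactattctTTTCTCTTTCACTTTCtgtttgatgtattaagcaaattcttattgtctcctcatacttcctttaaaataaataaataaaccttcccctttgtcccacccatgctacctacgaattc
Irf8 (plus strand, chr8:120736158-120736357): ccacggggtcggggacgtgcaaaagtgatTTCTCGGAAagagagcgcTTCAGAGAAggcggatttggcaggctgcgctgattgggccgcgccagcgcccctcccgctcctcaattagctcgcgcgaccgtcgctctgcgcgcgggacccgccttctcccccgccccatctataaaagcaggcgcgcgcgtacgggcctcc
Tlr3 (minus strand, chr8:45410381-45410580): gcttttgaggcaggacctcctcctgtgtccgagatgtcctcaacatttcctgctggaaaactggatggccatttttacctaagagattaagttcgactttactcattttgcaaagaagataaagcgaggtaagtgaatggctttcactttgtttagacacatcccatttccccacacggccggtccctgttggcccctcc
Bst2 (minus strand, chr8:71537473-71537672): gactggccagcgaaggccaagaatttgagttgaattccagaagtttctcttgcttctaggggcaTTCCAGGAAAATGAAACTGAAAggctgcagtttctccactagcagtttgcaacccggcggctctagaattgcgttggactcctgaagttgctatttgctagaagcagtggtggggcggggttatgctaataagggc
In Isg15, 3 overlapping ISRE cores form 1 run between 78 and 57 bases before the start site. In Tlr6, 2 overlapping ISRE cores lie on the opposite strand, and in Irf8, 2 separate GAS cores lie 171 and 153 bases before the start. In Bst2, a GAS core runs into 2 overlapping ISRE cores. Among the tested genes with a promoter, the 13 with an ISRE core had 6 positive and 7 negative log2 fold changes (STARKO1 over MA-10 cells) with a median of -0.12. The 24 without one had 13 positive and 11 negative values with a median of 0.13.

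The depth was 14114349 to 19530054 estimated counts per library, so that 3 counts, used as the detection floor, equalled 0.264 CPM or less for MA-10 and 0.177 CPM or less for STARKO1 libraries. CPM are depth-scaled counts, computed here with TMM-scaled library sizes. Such floors, and the counting intervals given below, cover counting error only. Star, the targeted gene, had 1064, 1261 and 697 counts in the MA-10 libraries and 48, 46 and 36 counts in the STARKO1 libraries (log2 fold change -5.09, standard error 0.331, adjusted p = 0.00121, edgeR quasi-likelihood). One library stood apart: MA-10 replicate 1 had a Pearson's r of log2 CPM, across 8538 genes that are not independent replicates, of 0.802 and 0.874 with the other MA-10 libraries and of 0.949 to 0.955 with the STARKO1 libraries. The noncoding 7SL RNA made up 1.81%, 14.4% and 6.63% of MA-10 replicates 1, 2 and 3 and 1.82% to 2.37% of each STARKO1 library. The part of these differences in the results below was not tested, and each result was recomputed without each library. All 10 Leydig cell markers of a fixed list were in the table, with a summed level of 1603 to 2094 CPM in MA-10 cells and 1547 to 1595 CPM in STARKO1 cells. Of these markers 5 had positive and 5 negative log2 fold changes. Differentially expressed was 1 of the 10 (10%), close to the 9.04% of all genes tested. This was Hsd3b1, an enzyme of steroid synthesis, with 27.8, 37.2 and 24.3 CPM against 5.12, 5.72 and 4.72 CPM (log2 fold change -2.52, standard error 0.219, adjusted p = 0.00268, edgeR). Of 14 macrophage and leukocyte markers, 4 were listed, with a summed level of 7.66 to 10.5 CPM in MA-10 cells and 6.90 to 9.16 CPM in STARKO1 cells. Most of that sum was Csf1r, while Cd14 and Cd68 were each below 0.3 CPM on average in both cell lines, and Ptprc, Adgre1 and Itgam were not analysed here. Of 13 Sertoli and germ cell markers, 3 were listed, Rhox5, Dhh and Ddx4, with 337 to 527 CPM in MA-10 cells and 566 to 591 CPM in STARKO1 cells. Sox9, Amh, Wt1, Dazl and Stra8 were among those not listed. Of 12 endothelial and fibroblast markers, 4 were listed, with 33.2 to 44.4 CPM and 119 to 124 CPM. Of these, 3 were tested and 2 called, beside 9.04% of all genes, Cdh5 higher and Pdgfra lower in STARKO1 cells. Pdgfra (211 against 3 counts in all) passed the filter on low counts only through the MA-10 libraries. Its presence among the tested genes thus already depended on a difference. The part of the markers of these lists in the results was not tested. In RNA of whole cultures fewer cells that express a gene and less RNA per cell cannot be told apart.

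Of the 49 genes, 43 passed the filter on low counts and were tested, and 9 of these (20.9%) were differentially expressed between the cell lines at an adjusted p under 0.05, where 9.04% of all 11939 genes tested were. Tlr3, Tlr6, Dhx58 and Irf3 were higher in STARKO1 cells, which is 9.30% of the tested genes of the set against a background of 4.30%. Cxcl16, Tlr4, Ifngr1, Isg15 and Irf8 were lower, 11.6% against 4.74%. The genes that rose thus encode sensors of nucleic acid, a factor that acts below such sensors and, with Tlr6, a sensor of lipopeptide. The genes that fell encode a chemokine, the lipopolysaccharide receptor, an interferon gamma receptor chain, a ubiquitin-like effector and a transcription factor. Before adjustment, p was under 0.05 for 21 of the 43 genes (48.8%, against 37.6% of all genes), 12 of them higher (27.9% against 15.0%) and 9 lower (20.9% against 22.7%). In 22 genes the libraries of the cell lines did not overlap (51.2% against 42.5%). Of these, 13 were higher (30.2% against 21.5%) and 9 lower (20.9% against 21.0%) in STARKO1 cells. The median log2 fold change was 0.12 over the 43 genes and -0.05 over all genes, with 23 positive and 20 negative values. Tlr6 and Cxcl16 passed the filter only through the cell line in which they were high, so their presence among the tested genes already depended on a difference.

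**Figure D1:**
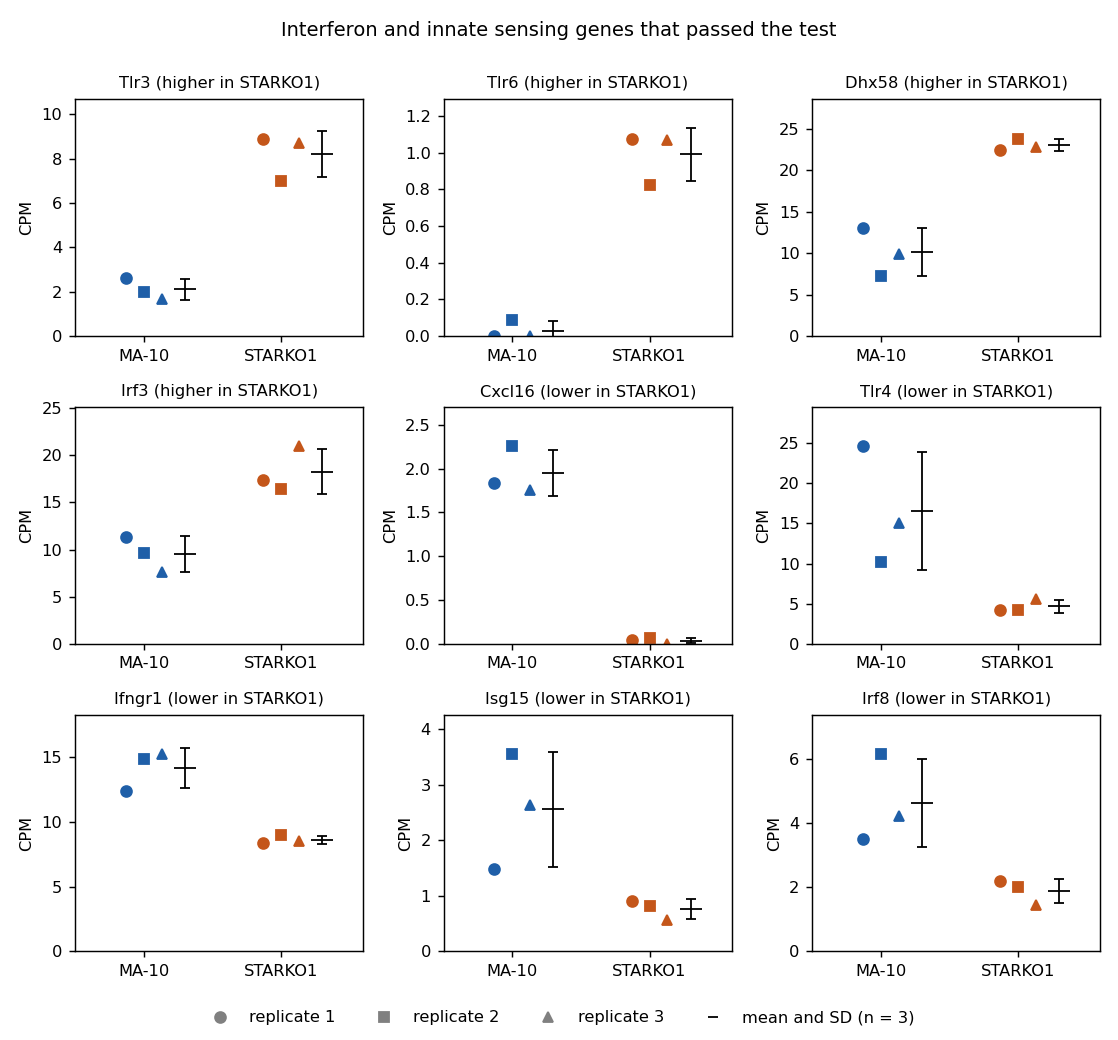
CPM (linear axes that start at 0) in each library for the 9 genes that were differentially expressed, 1 panel per gene, with the libraries of each cell line as points and the mean ± SD (n = 3) beside them. In all 9 panels the 3 STARKO1 points lie on one side of the 3 MA-10 points, and Tlr6 in MA-10 cells and Cxcl16 in STARKO1 cells lie at 1 count or fewer in every library.

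The split of these calls moved with the scaling. With upper quartile scaling, 4 genes were higher and 2 lower (6.94% of all genes were called in either direction), and with scaling by library size alone, 2 were higher and 1 lower (2.76%), while the median log2 fold change over all genes moved from -0.05 to 0.10 and to 0.38. The 9 genes kept the sign of their log2 fold change in every alternative in which they were tested. Leaving out MA-10 replicate 1 raised the count to 31 of 44 genes, with 65.7% of all genes called in that fit, and leaving out STARKO1 replicate 1 lowered it to 0 (edgeR), with 0.730% of all genes called. Without MA-10 replicates 2 and 3 in turn, 6 and 2 genes were called beside 4.19% and 1.49% of all genes, and without STARKO1 replicates 2 and 3 in turn, 2 and 1 beside 1.11% and 0.760%. DESeq2 called 15 of the 43 genes beside 28.5% of all genes, gene length offsets 8 beside 10.1%, the fit without a filter 6 of 49 beside 6.41%, the filter that asked for 10 counts in each library 4 of 37 beside 6.44%, and the fit with a replicate block 2 beside 1.96%.

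All 4 interferon receptor chains had negative log2 fold changes, as did 52.9% of all genes. Of these chains 1, Ifngr1, passed the test (25%, beside 9.04% of all genes). Ifngr1, the ligand-binding chain for interferon gamma (chromosome 10 of GRCm38, 19591949 to 19610229, plus strand), was at 12.4, 14.8 and 15.2 CPM in the MA-10 libraries, in the order of replicates 1, 2 and 3 that is kept throughout, and at 8.35, 8.96 and 8.54 CPM in the STARKO1 libraries. The 3 STARKO1 values lay close together and below every MA-10 value. The log2 difference between the cell lines was -0.71 (standard error 0.165, adjusted p = 0.0457, edgeR quasi-likelihood), and the threshold was passed in 1 of 6 refits with 1 library removed, the one without MA-10 replicate 1, and in 1 of 7 other alternatives (adjusted p 0.00147 to 0.461 over these alternatives). Ifngr2, the accessory chain of the same receptor, had 14.8, 21.0 and 15.1 CPM in MA-10 cells and 11.0, 9.90 and 9.33 CPM in STARKO1 cells. These libraries did not overlap either, but the log2 fold change of -0.75 (standard error 0.200) missed the threshold (adjusted p = 0.0602, edgeR). The chains of the type I receptor were closer between the cell lines. Ifnar1 had 34.1, 34.9 and 29.9 CPM in MA-10 cells and 27.0, 28.0 and 25.0 CPM in STARKO1 cells (log2 fold change -0.31, adjusted p = 0.174, edgeR). Ifnar2 had 32.2, 32.5 and 32.5 CPM against 29.9, 30.8 and 28.9 CPM (log2 fold change -0.12, adjusted p = 0.530, edgeR). When libraries were scaled by their size alone, both signs turned positive, and that of Ifnar2 did so with upper quartile scaling too. No interferon gene itself was among the 49, and interferon transcripts were not analysed here.

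Of the 8 transcription factors, Irf3 was higher, Irf8 was lower and the other 6 did not pass the test (25% called, beside 9.04% of all genes). Irf3 encodes the factor that is phosphorylated below MAVS and the Toll-like receptor adaptor TRIF and then induces type I interferon (chromosome 7, 44997648 to 45002848, plus strand). It had 11.3, 9.63 and 7.57 CPM in the MA-10 libraries and 17.4, 16.4 and 21.0 CPM in the STARKO1 libraries. Every STARKO1 library was above every MA-10 library, with MA-10 replicate 1 the nearest to them (log2 fold change 0.94, standard error 0.209, adjusted p = 0.0422, edgeR quasi-likelihood). Irf3 passed the threshold in 1 of 6 such refits, the one without MA-10 replicate 1, and in 5 of 7 other alternatives (adjusted p 0.000491 to 0.194). Its exons overlap those of Bcl2l12 on the opposite strand over 2.56% of their length. Irf8, best known as a lineage factor of myeloid cells and as a partner of other IRF proteins (chromosome 8, 120736358 to 120756694, plus strand), had 3.49, 6.16 and 4.23 CPM in MA-10 cells and 2.19, 2.00 and 1.46 CPM in STARKO1 cells. Here too MA-10 replicate 1 was nearest to the STARKO1 libraries without overlapping them (log2 fold change -1.28, standard error 0.309, adjusted p = 0.0497, edgeR). Irf8 passed in 1 of 6 such refits, again without MA-10 replicate 1, and in 1 of 7 other alternatives (adjusted p 0.00238 to 0.212).

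The factors that act directly below the receptors were measured at moderate levels in both cell lines. Stat2, a factor of the type I interferon pathway, had 11.6, 3.38 and 7.31 CPM in MA-10 cells against 9.46, 9.25 and 10.3 CPM in STARKO1 cells, so that the MA-10 libraries spread around the STARKO1 values (log2 fold change 0.36, adjusted p = 0.517, edgeR). Irf9, a DNA-binding subunit of the type I complex, had 8.30, 9.28 and 5.72 CPM against 6.19, 5.48 and 5.56 CPM (log2 fold change -0.44, adjusted p = 0.200), and its sign was lost with scaling by library size alone. These differences lay within the spread between libraries. Irf1, a target and amplifier of interferon gamma signalling, had 13.1, 8.76 and 9.42 CPM in MA-10 cells and 14.6, 14.5 and 13.8 CPM in STARKO1 cells (log2 fold change 0.45, adjusted p = 0.151). Irf7, which amplifies type I interferon after a first wave, was low in all libraries, with 2.46, 1.99 and 2.20 CPM against 3.01, 2.36 and 3.09 CPM (log2 fold change 0.34, adjusted p = 0.326). Irf2, an antagonist of IRF1, overlapped between the cell lines (adjusted p = 0.717, edgeR).

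The 3 genes of the IRF2-binding protein family, corepressors named for their contact with IRF2, did not pass the test. Irf2bp1 was the third most abundant gene of the set per length in MA-10 cells, with 17.2, 73.4 and 46.8 CPM against 22.7, 21.6 and 23.6 CPM in STARKO1 cells (log2 fold change -1.02, adjusted p = 0.158, edgeR). MA-10 replicate 1 was below the STARKO1 libraries and the other MA-10 libraries were far above them.

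All 3 Toll-like receptor genes in the table were differentially expressed, 2 higher and 1 lower, beside 9.04% of all genes, and of these Tlr6 was tested only because it was high in STARKO1 cells. With a replicate block 1 of the 3 was called, without MA-10 replicate 3 or STARKO1 replicate 2 also 1, and without STARKO1 replicate 1 or 3 none (edgeR). Tlr3, the endosomal receptor for double-stranded RNA (chromosome 8, 45395665 to 45411080, minus strand), had 46, 23 and 19 counts in MA-10 replicates 1, 2 and 3 and 207, 119 and 155 counts in STARKO1 replicates 1, 2 and 3, or 2.63, 1.99 and 1.67 CPM against 8.90, 7.01 and 8.71 CPM. Each STARKO1 library was above each MA-10 library by more than the spread within either cell line. The log2 difference between the cell lines was 1.95 (standard error 0.248, adjusted p = 0.00851, edgeR quasi-likelihood), and Tlr3 passed the threshold in 4 of 6 such refits, the exceptions being those without STARKO1 replicates 1 and 3, and in 7 of 7 other alternatives (adjusted p 1.3e-08 to 0.0694). The exons of Tlr3 overlap the opposite-strand gene model Gm45542 over 7.32% of their length.

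Tlr6, which pairs with TLR2 to detect diacylated lipopeptides (chromosome 5, 64952031 to 64960097, minus strand), had 0, 1 and 0 counts in the MA-10 libraries and 25, 14 and 19 counts in the STARKO1 libraries. In MA-10 cells it was below the level that could be shown at this depth, and in STARKO1 cells it was low, at 1.08, 0.825 and 1.07 CPM. The ratio of the pooled levels was 40.3, with a 95% exact counting interval of 6.96 to 1620.5. The test gave an adjusted p of 0.0150 (edgeR), and the threshold was passed in 2 of 6 such refits, those without MA-10 replicate 1 and without MA-10 replicate 2, and in 5 of 6 other alternatives (adjusted p 0.000921 to 0.0928). One of its values, in 1 library, was not whole.

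Tlr4, the receptor for bacterial lipopolysaccharide (chromosome 4, 66827584 to 66930284, plus strand), was the one Toll-like receptor gene that fell. It had 24.6, 10.1 and 15.1 CPM in MA-10 cells and 4.17, 4.24 and 5.62 CPM in STARKO1 cells. Unlike in most of the genes above, MA-10 replicate 1 was here the farthest from the STARKO1 libraries. The log2 difference between the cell lines was -1.83 (standard error 0.348, adjusted p = 0.0287, edgeR), with the threshold passed in 2 of 6 such refits, those without MA-10 replicates 1 and 2, and in 5 of 7 other alternatives (adjusted p 8.33e-05 to 0.162). The genes for TLR2, the partner of TLR6, and for the other Toll-like receptors were not analysed here.

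**Figure D2:**
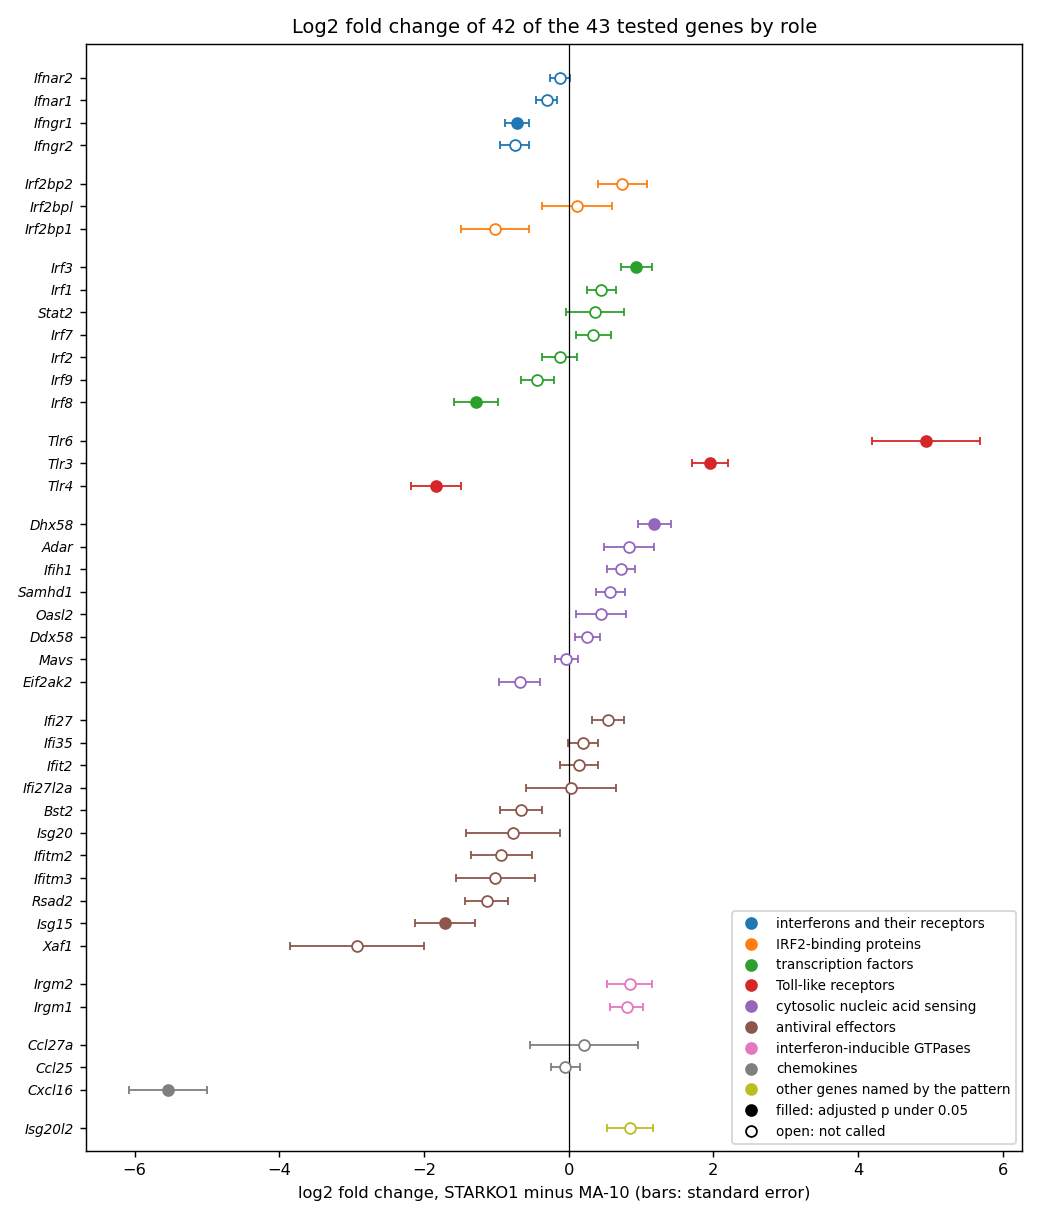
Log2 fold change (STARKO1 over MA-10 cells) of 42 of the 43 tested genes, grouped by role, with bars of 1 standard error and the genes that passed the test marked. The 4 receptor chains lie below 0, the Toll-like receptor genes lie far to both sides, and most cytosolic sensors lie above 0. The positions of Tlr6 and Cxcl16 rest on counts near 0 in one cell line and are not firm.

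Of the 8 tested genes of cytosolic nucleic acid sensing, Dhx58 was higher and the other 7 did not pass the test. The share called was 12.5%, beside 9.04% of all genes. Positive log2 fold changes were found in 6 of the 8 and negative ones in 2 (25%, against 52.9% of all genes). Positive values were found in 7 with scaling by library size alone, upper quartile scaling or gene length offsets. In these settings the median over all genes was 0.38, 0.10 and -0.03, against -0.05 in the fit reported here. Dhx58 encodes LGP2, a helicase that tunes RIG-I and MDA5 signalling (chromosome 11, 100694884 to 100704271, minus strand). It had 13.1, 7.29 and 9.95 CPM in the MA-10 libraries and 22.5, 23.8 and 22.9 CPM in the STARKO1 libraries, where the values were nearly equal. The log2 difference between the cell lines was 1.18 (standard error 0.232, adjusted p = 0.0314, edgeR quasi-likelihood). Dhx58 passed the threshold in 2 of 6 such refits, those without MA-10 replicates 1 and 2, and in 5 of 7 other alternatives (adjusted p 0.000123 to 0.153), and 4.31% of its exonic length lies across from the antisense gene Dhx58os.

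The helicases that LGP2 acts with did not pass the test. Ifih1, the sensor of long double-stranded RNA, had 19.5, 12.7 and 17.2 CPM in MA-10 cells and 28.6, 27.8 and 25.3 CPM in STARKO1 cells. The libraries did not overlap, and the log2 fold change of 0.72 (standard error 0.199) missed the threshold with an adjusted p of 0.0623 (edgeR). Ddx58, the sensor of short RNA with a triphosphate end, had 14.8, 10.9 and 12.9 CPM against 15.7, 14.4 and 16.3 CPM (log2 fold change 0.26, adjusted p = 0.302, edgeR). Mavs, the mitochondrial adaptor of both helicases, was nearly level, with 40.5, 37.9 and 47.6 CPM against 38.5, 41.5 and 43.0 CPM (log2 fold change -0.03, standard error 0.156, adjusted p = 0.886), and its sign depended on the setting. The values of Mavs were not whole in any of the 6 libraries.

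Eif2ak2 encodes PKR, the kinase that stops translation on binding double-stranded RNA. It had 43.0, 90.0 and 84.4 CPM in MA-10 cells and 45.2, 46.2 and 44.7 CPM in STARKO1 cells, so that MA-10 replicate 1 was close to the STARKO1 libraries while the other MA-10 libraries lay above them (log2 fold change -0.67, standard error 0.283, adjusted p = 0.132, edgeR). Adar, Samhd1 and Oasl2, which edit double-stranded RNA, deplete nucleotides and belong to the 2′-5′-oligoadenylate synthetase family, had log2 fold changes of 0.84, 0.58 and 0.45 and did not pass either. Oas1c was removed by the filter on low counts, with 3 counts in all in MA-10 cells and 40 counts in STARKO1 cells. The ratio was 9.27 with a 95% exact counting interval of 2.95 to 46.9, which covers counting error only. In the fit without a filter Oas1c missed the threshold (adjusted p = 0.0610, edgeR). It passed in 1 of 4 refits with 1 library removed, the one without MA-10 replicate 1. The DNA sensor cGAS is listed under its current symbol Cgas and not under the symbol Mb21d1 of the pattern, so it is outside the 49 genes. It had 17.6, 16.0 and 16.4 CPM in MA-10 cells and 17.1, 20.8 and 15.1 CPM in STARKO1 cells, which overlapped (log2 fold change 0.08, adjusted p = 0.743, edgeR). Tmem173, which encodes STING, was not analysed here.

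Of the 11 antiviral effector genes tested, Isg15 was lower and the other 10 did not pass the test. The share called was 9.09%, close to the 9.04% of all genes. Negative log2 fold changes were found in 7 of the 11 (63.6%, against 52.9% of all genes), with a median of -0.77, against -0.05 over all genes. The median moved to -0.37 without MA-10 replicate 2, to -0.49 with gene length offsets and to -0.25 with scaling by library size alone. In these settings the median over all genes was -0.06, -0.03 and 0.38. Isg15, a ubiquitin-like protein that is conjugated to host and viral proteins (chromosome 4, 156199424 to 156200818, minus strand), had 26, 41 and 30 counts in the MA-10 libraries and 21, 14 and 10 counts in the STARKO1 libraries, or 1.49, 3.56 and 2.64 CPM against 0.903, 0.825 and 0.562 CPM. All STARKO1 values were below all MA-10 values, and MA-10 replicate 1 was the closest to them. The log2 difference between the cell lines was -1.71 (standard error 0.412, adjusted p = 0.0494, edgeR quasi-likelihood), and Isg15 passed the threshold in 1 of 6 such refits, the one without MA-10 replicate 1, and in 2 of 7 other alternatives (adjusted p 0.00107 to 0.210).

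Ifitm2, Bst2 and Ifi27, effectors that sit in membranes, were among the 4 most abundant genes of the set per length of exon in both cell lines. Ifitm2, which restricts viral entry in endosomes, had 38.6, 137.7 and 80.2 CPM in MA-10 cells and 47.6, 46.2 and 40.4 CPM in STARKO1 cells. Bst2, or tetherin, which holds budding virions at the cell surface, had 21.6, 46.8 and 42.0 CPM against 23.7, 23.9 and 22.5 CPM. In both genes MA-10 replicate 1 was below every STARKO1 library and the other MA-10 libraries were above them, and neither passed the test (log2 fold changes -0.93 and -0.65, adjusted p = 0.153 and 0.147, edgeR). Ifi27, an interferon-induced protein of mitochondrial and nuclear membranes, had 27.3, 23.1 and 16.2 CPM against 35.1, 28.5 and 33.7 CPM. Its libraries did not overlap, at a log2 fold change of 0.55 and an adjusted p of 0.127 (edgeR). Ifitm2 shares 40.9% of its exonic length with the same-strand gene model Gm45717 and is similar in sequence to Ifitm3, so its level is uncertain.

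Per kilobase of exon, the scale on which genes can be ranked, Ifitm2 had 130.6 ± 76.0 CPM per kb (SD, n = 3) in MA-10 cells, followed by Bst2 with 40.8 ± 14.8, Irf2bp1 with 16.8 ± 10.3 and Ifi27 with 15.1 ± 3.81. The ranges of mean ± SD of each pair of neighbours in this order overlapped, so these ranks are not firm. In STARKO1 cells the order was Ifitm2 with 68.3 ± 5.81 CPM per kb (SD, n = 3), Bst2 with 25.9 ± 0.824, Ifi27 with 22.1 ± 2.39 and Irf2bp2 with 17.1 ± 1.75, and these neighbours did not overlap. Of the sensors and receptors, Mavs stood at 12.6 ± 1.49 CPM per kb in MA-10 cells and 12.3 ± 0.690 in STARKO1 cells, and Ifnar2 at 9.74 ± 0.0466 and 8.97 ± 0.284. At the other end, Tlr6 was at 0.00776 ± 0.0134 CPM per kb in MA-10 cells and Cxcl16 at 0.0113 ± 0.0101 in STARKO1 cells.

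**Figure D3:**
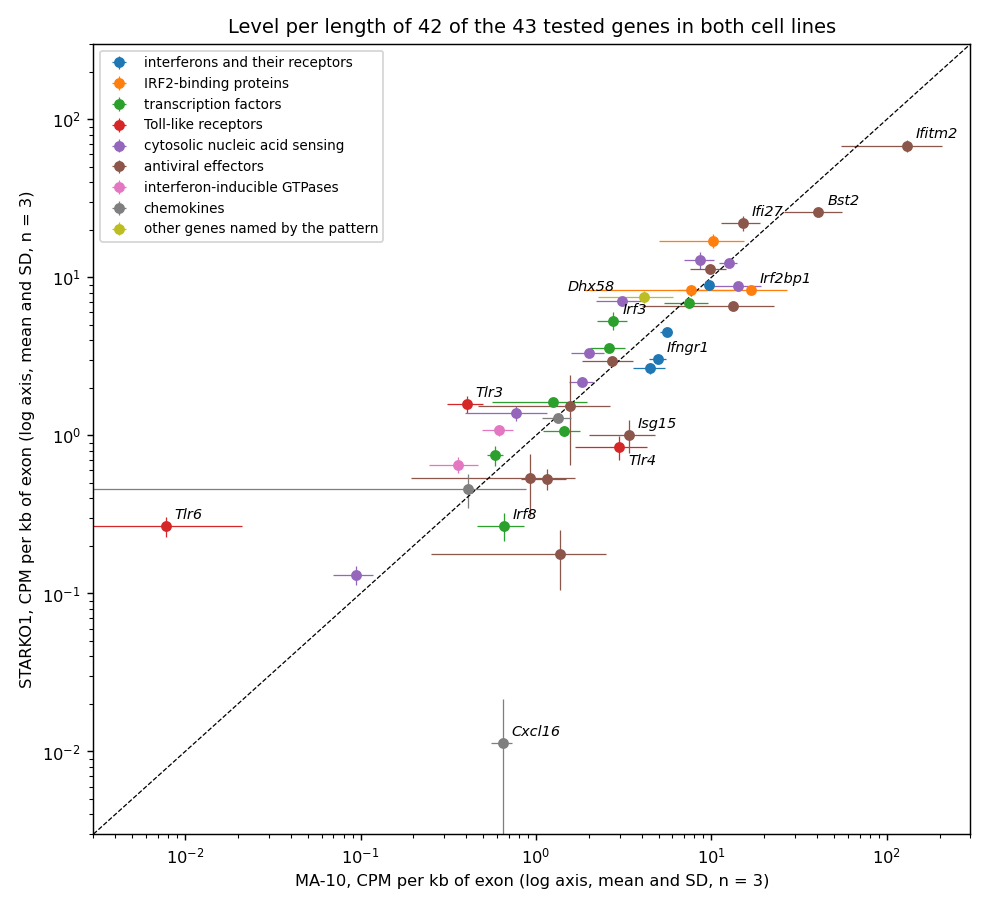
Mean level per length in MA-10 cells (x axis) against STARKO1 cells (y axis) for 42 of the 43 tested genes, in CPM per kb of exon on log axes, with bars of 1 SD over 3 libraries and a dashed line of equal levels. Bars that run to an edge belong to genes whose SD reaches the mean. Ifitm2 and Bst2 are at the top, Tlr6 lies far above the line and Cxcl16 far below it, and the horizontal bars are mostly longer than the vertical ones.

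Among the other effectors, Xaf1 and Rsad2 were picked with their values known. Xaf1, a pro-apoptotic interferon-induced protein, had 0.630, 10.9 and 7.84 CPM in MA-10 cells and 0.688, 0.589 and 1.24 CPM in STARKO1 cells. MA-10 replicate 1 lay among the STARKO1 libraries, and the log2 fold change of -2.92 had a standard error of 0.928 (adjusted p = 0.0790, edgeR). Rsad2, or viperin, which makes a chain-terminating nucleotide, had 6.13, 3.38 and 5.55 CPM against 1.89, 2.53 and 2.47 CPM, without overlap (log2 fold change -1.13, adjusted p = 0.0591, edgeR). Ifit2, Ifi35, Ifitm3, Isg20 and Ifi27l2a overlapped between the cell lines. Ifit3 and Usp18 were removed by the filter on low counts. Usp18, the protease that removes ISG15 and restrains the type I receptor, had 1 count in all in MA-10 cells and 24 counts in STARKO1 cells. The ratio was 16.7 with a 95% exact counting interval of 2.72 to 686. In the fit without a filter Usp18 missed the threshold (adjusted p = 0.0543, edgeR). Of the interferon-inducible GTPases, Irgm1 and Irgm2, which act on membranes that enclose pathogens, were tested. Their libraries did not overlap and were higher in STARKO1 cells, at log2 fold changes of 0.80 and 0.84 that missed the threshold (adjusted p = 0.0643 and 0.103, edgeR). Gbp2 and Gbp7 had at most 5 counts in any library and were not tested. Isg20l2, a nucleolar exonuclease matched by its symbol, did not pass the test (adjusted p = 0.104).

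Of the 3 chemokine genes tested, Cxcl16 was lower and Ccl25 and Ccl27a overlapped between the cell lines (33.3% called, beside 9.04% of all genes). Cxcl16 was tested only because it was high in MA-10 cells. Cxcl16 encodes a chemokine made as a transmembrane protein that binds CXCR6 and oxidised lipoprotein (chromosome 11, 70453983 to 70459984, minus strand). It had 32, 26 and 20 counts in the MA-10 libraries and 1, 1 and 0 counts in the STARKO1 libraries. The MA-10 levels of 1.83, 2.26 and 1.76 CPM were low and close together, with MA-10 replicate 1 between the others, and the STARKO1 levels were below what could be shown at this depth. The ratio of the pooled levels, MA-10 over STARKO1 cells, was 56.1 with a 95% exact counting interval of 15.0 to 471. Cxcl16 had the smallest adjusted p of the set (0.00430, edgeR) and passed the threshold in 5 of 6 such refits, the exception being the one without STARKO1 replicate 1, and in 6 of 6 other alternatives (adjusted p 6.6e-06 to 0.0510). Over 18.3% of its length, its exons overlap those of Zmynd15 on the opposite strand. Ccl28 was not tested. Cxcl10 and Ccl2, the best known chemokines induced by interferon and by innate sensors, were not analysed here.

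**Figure D4:**
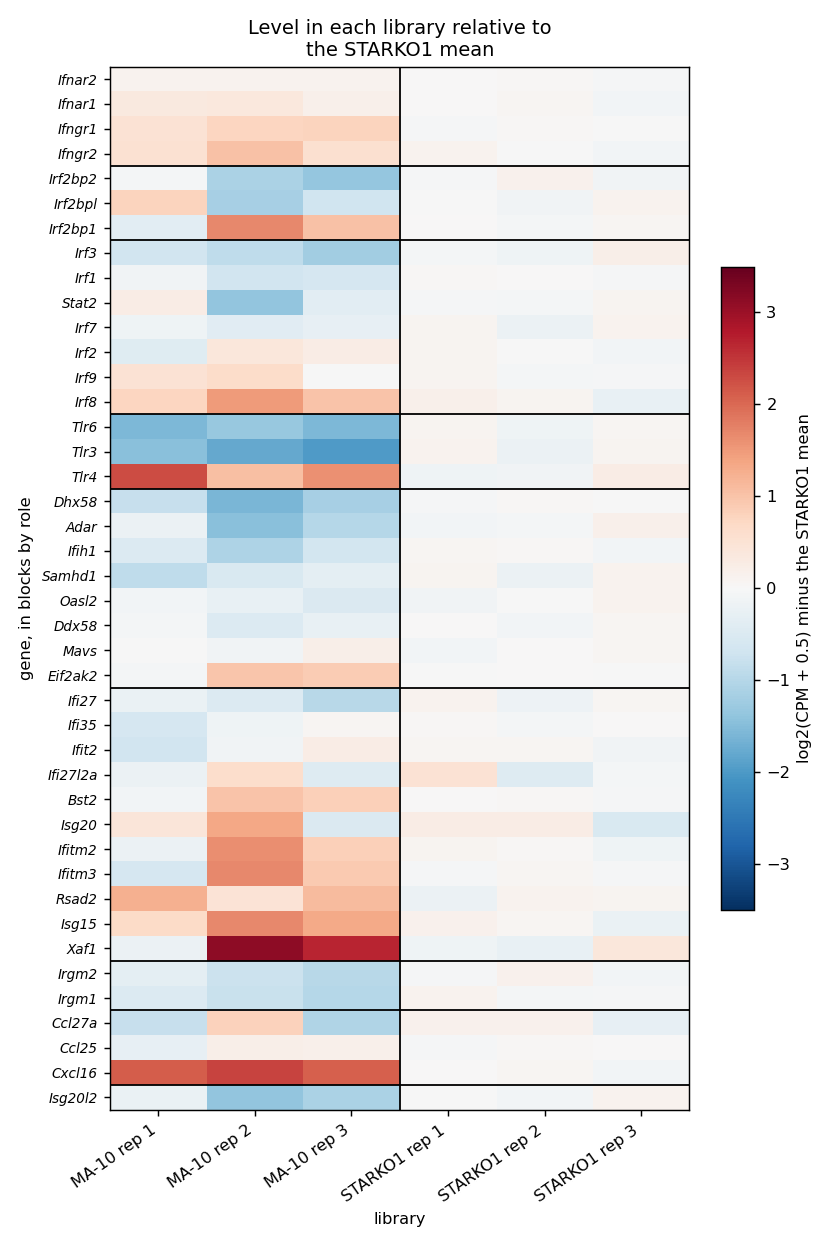
Level of 42 of the 43 tested genes in each library (columns) as log2(CPM + 0.5) minus the gene's mean over the 3 STARKO1 libraries, in blocks by role, with red above and blue below that mean. The STARKO1 columns are pale because they are set against their own mean. In Xaf1, Eif2ak2 and Ifitm2 the column of MA-10 replicate 1 is nearly as pale as they are, and in Tlr4 it is the darkest.

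The position of MA-10 replicate 1 varied between genes. In 23 of the 43 genes (53.5%) it was nearer to the STARKO1 mean than to the mean of the other MA-10 libraries on the scale of log2(CPM + 0.5), against 69.7% of all genes tested. Without this library, 11 of the 16 named genes that had been tested and had not passed did so, in a fit that called 65.7% of all genes, among them Ifih1 and Irf1 upwards and Bst2, Eif2ak2 and Ifitm2 downwards.

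Genes that surround these in the pathway were read from 4 lists. Of 130 genes in the lists, 95 were in the table and 84 were tested, and 6 of these (7.14%) were differentially expressed, 5 higher and 1 lower, a share below the 9.04% of all genes. Of 27 tested genes of signal transduction, among them the Janus kinases, the Toll-like receptor adaptors and the NF-κB subunits, Jak2 was lower and none was higher. The share called was 3.7%, below the 9.04% of all genes. Jak2, the kinase bound to the IFNGR2 chain, had 34.2, 31.7 and 31.5 CPM in MA-10 cells and 18.7, 21.5 and 16.4 CPM in STARKO1 cells, without overlap (log2 fold change -0.78, standard error 0.163, adjusted p = 0.0360, edgeR). Jak2 passed the threshold in 1 of 6 such refits and in 3 of 7 other alternatives. Jak1, the kinase bound to the IFNGR1 chain, overlapped between the cell lines (log2 fold change -0.11, adjusted p = 0.720, edgeR). With scaling by library size alone, the log2 fold changes were -0.25 for Ifngr1, -0.27 for Ifngr2, -0.36 for Jak2 and 0.27 for Jak1, and none of them passed the test.

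Of 20 tested negative regulators, such as the SOCS, PIAS and phosphatase genes, 0 were differentially expressed by edgeR's test. There were 3 at an unadjusted p under 0.05 and 2 called by DESeq2, beside 37.6% and 28.5% of all genes. Of 34 tested interferon-stimulated genes that the symbol pattern does not cover, 3 were higher and 0 lower (8.82%, close to the 9.04% of all genes called in either direction). These were Parp9, Lgals9 and Slfn9. Parp9, a partner of the ubiquitin ligase DTX3L, had 12.8, 9.80 and 8.63 CPM in MA-10 cells and 20.8, 21.8 and 21.7 CPM in STARKO1 cells (log2 fold change 1.04, adjusted p = 0.0264, edgeR). Lgals9, a galactoside-binding lectin, had 6.59, 6.33 and 4.67 CPM against 11.4, 11.8 and 12.4 CPM (log2 fold change 1.01, adjusted p = 0.0289). Slfn9, of the Schlafen family, had 18.7, 29.5 and 23.2 CPM against 44.8, 45.6 and 42.3 CPM (log2 fold change 0.90, adjusted p = 0.0422), and belongs to a cluster of similar genes that can share reads. In each of the 3 genes the STARKO1 libraries were close together and above all MA-10 libraries. At an unadjusted p under 0.05, 11 genes of this list were higher and 1 lower (32.4% and 2.94%, against 15.0% and 22.7% of all genes). Parp9 and Lgals9 passed in 1 and Slfn9 in 2 of 6 such refits, and each passed in 5 of 7 other alternatives.

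Of the chemokine receptors, 3 were tested and 2 were higher in STARKO1 cells, beside 4.30% of all genes. Both passed the filter on low counts only through the STARKO1 libraries, so their presence among the tested genes already depended on a difference. With at least 10 counts in every library neither was tested, with a replicate block 1 was called, and without any 1 of the STARKO1 libraries 0 were (edgeR). Ackr3, an atypical receptor that scavenges CXCL12, had 5, 5 and 1 counts in the MA-10 libraries and 69, 48 and 64 counts in the STARKO1 libraries, or 0.286, 0.434 and 0.0881 CPM against 2.97, 2.83 and 3.60 CPM (log2 fold change 3.49, standard error 0.445, adjusted p = 0.00851, edgeR). Ccr10, the receptor for CCL27 and CCL28, had 6, 3 and 3 counts against 30, 22 and 23 counts (log2 fold change 2.11, standard error 0.328, adjusted p = 0.0162, edgeR). Both were close to the lowest level that could be shown in MA-10 cells. Ackr3 passed in 3 and Ccr10 in 2 of 6 such refits, and in 6 of 6 and 5 of 6 other alternatives.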

How the data were processed

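RNA sequencing of untreated cells, with a stranded total RNA kit, covered 6 libraries, 3 of MA-10 and 3 of STARKO1 cells. The authors deposited estimated counts per gene, not scaled for depth, and their processing notes name STAR 2.6.1d, Partek and build mm10, with no role given. The strand setting of the counting is not given in the sources used here, so reads of genes and their antisense partners may not be separated (16 of the 49 genes overlap exons of an opposite-strand gene and 6 those of a same-strand gene). In 13 of the 49 genes a value was not whole (by more than 1e-06), which means that reads had been divided between genes or transcripts. All 6 columns were matched to their samples by name.

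After rounding, the whole table was fitted with edgeR 4.0.16 in R 4.3.3 (filterByExpr, TMM, glmQLFit, glmQLFTest, Benjamini-Hochberg over the 11939 genes tested). The call was an adjusted p under 0.05, and every adjusted p in the report is from this quasi-likelihood test of edgeR unless an alternative is named. The standard error is the log2 fold change divided by the square root of F. Depths were 14114349 to 19530054 counts per library, and the common biological coefficient of variation was 0.291. Coordinates and exon lengths came from GENCODE M21 (GRCm38) and promoters from RefSeq (GRCm38.p6). Ratios near 0 counts have exact 95% intervals. Python 3.11.15 was used with matplotlib 3.10.9, scipy 1.17.1, numpy 2.4.6 and pandas 2.3.3. The fits were tested on simulated data in which both cell lines had the same spread between libraries. The MA-10 libraries differed more from each other than the STARKO1 libraries did, so the simulation does not show how the fits behave there.

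Alternatives were DESeq2 1.42.0, scaling by library size alone or by upper quartile, testing without a filter, at least 10 counts in every library, gene length offsets, a replicate block and leaving out each library. Genes named with every library were those that passed the test, those with 3 or fewer counts in every library of one cell line and 20 or more in the other, the 3 most abundant per length in either cell line, and the best known gene of each role. The values of 1 tested gene are not reported here, though it is in the counts. The genes, lists and tests were chosen with earlier results of these data known.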

Additional observations from a re-analysis of the deposited data

How the results depend on the processing

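Of the 9 genes differentially expressed, all 9 were among the 15 called by DESeq2 (7 higher, 8 lower). With at least 10 counts in every library 4 were called (1 lower), with scaling by library size alone 3 (2 higher, 1 lower), with gene length offsets 3 of the calls were lower, and without a filter or with upper quartile scaling 2 were lower. Leaving out 1 library gave 0 to 31 calls, 0 to 18 higher and 0 to 13 lower, with 31 without MA-10 replicate 1 and 0 without STARKO1 replicate 1. Of the 84 tested genes of the other pathway lists, of which 6 were called, DESeq2 called 21, beside 28.5% of all genes. Scaling by library size alone called 3, beside 2.76%. Leaving out 1 library gave between 0 and 56 calls, beside 0.730% to 65.7% of all genes. In a fit with a replicate block, 2 of the 9 genes were called, Tlr3 higher and Cxcl16 lower (1 each), 1 gene of the pathway lists, and 234 of all 11939 genes (1.96%). Deviations from the cell line means were not shared by libraries of the same number (mean r across genes 0.0163, range -0.0165 to 0.0455), so the numbers were not taken to pair the samples. Star kept its call in every alternative. For the named genes, 239 comparisons of an alternative with the reported value kept direction and side of the threshold, 59 lost the call, 14 gained it and 11 changed sign, none of them past the threshold in either fit. The log2 fold change of Mavs became 0.0194 with gene length offsets, 0.0246 without a filter, 0.40 with library size alone and 0.11 with upper quartile scaling, and ranged from -0.103 to 0.0934 when 1 library was left out, positive without MA-10 replicate 1 (0.0269), MA-10 replicate 3 (0.0634) and STARKO1 replicate 1. With library size alone that of Ifnar1 became 0.13, of Ifnar2 0.32 and of Irf9 0.00559, and with upper quartile scaling that of Ifnar2 became 0.0281. The cause of these changes was not tested. Where a library was left out, the fit also had fewer samples. Depth limited Tlr6 and Isg15 and, in STARKO1 cells, Cxcl16.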

Other observations

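Slfn5, an interferon-stimulated gene of the Schlafen family that the filter on low counts removed, had 2, 60 and 67 counts in MA-10 replicates 1, 2 and 3 and 0 counts in every STARKO1 library. It was singled out after its values were seen. The exact 95% counting interval of the ratio of pooled levels, MA-10 over STARKO1 cells, began at 49.6, and the counts came almost wholly from replicates 2 and 3. Cx3cr1, a chemokine receptor, had 47 counts in all in MA-10 cells and 2 in STARKO1 cells, a ratio of 33.8 with a 95% exact counting interval of 8.85 to 287. Trex1, a nuclease that removes cytosolic DNA, had 3 counts in all in MA-10 cells and 47 in STARKO1 cells, a ratio of 10.9 (3.51 to 54.7). Neither passed the filter on low counts with all libraries kept, and the intervals cover counting error only. In the fit of all libraries without that filter, Cx3cr1 was among 4 chemokine receptors tested, of which 0 were called lower (edgeR). Cx3cr1 and Trex1 were picked with their values known. Other genes of the lists that the filter removed also had counts near 0 in one cell line. Among them Sp100, Batf2 and Uba7 had more counts in STARKO1 cells and Nlrc3 had more in MA-10 cells.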
